A study of Mus musculus with 24 samples.

Results

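Nuclear genes of oxidative phosphorylation were followed in mouse embryos and yolk sacs carrying mutant alleles of Setd2, whose enzyme trimethylates lysine 36 of histone H3. A gene was included where its symbol in both count tables began with Nduf, Uqcr, Cox4 to Cox8 or Atp5, or was Sdha, Sdhb, Sdhc or Sdhd, and 9 names holding -ps were left out. This gave 98 of the 55421 rows of each table, under 97 symbols, since Atp5o stands there under a pair of gene identifiers. Complex I held 47 of them, complex II 4, complex III 8, complex IV 21 and complex V 18.

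Messenger RNA had been sequenced at embryonic day 9.5 on a C57BL/6 background. In the Setd2-null line and in the Setd2 catalytic-dead (CD) line, homozygous (HO), heterozygous (HE) and wild-type (WT) embryos and yolk sacs were taken, with 2 libraries for each tissue, line and genotype and 24 in all. RNA came from whole tissue, and the labels do not say whether 2 libraries of a group came from separate conceptuses. In some groups only a single library of the pair carried Y-linked transcripts, so these pairs did not come from the same conceptuses. They were null HO and CD HE embryos and null HO, null HE and CD HE yolk sacs. P-values measure the spread between libraries, which in the other groups may be technical. The labels name no second mutation, and each line has WT libraries of its own.

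The inner mitochondrial membrane carries 4 respiratory complexes and the ATP synthase. Complex I takes electrons from NADH and complex II, which is also succinate dehydrogenase of the citric acid cycle, takes them from succinate. Complex III passes them to cytochrome c, complex IV passes them to oxygen, and the ATP synthase, complex V, uses the resulting proton gradient. All but 13 of the structural proteins in mammals come from nuclear genes, which depend on factors such as NRF1, the ETS factor GABP, YY1 and the oestrogen-related receptors, and the E9.5 embryo is known to rely to a large extent on glycolysis.

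The promoters of the 5 members that changed alike in both lines of embryos (values further on) are shown first, so that their starts can be compared; 4 of them fell and Ndufv3 rose. Each line gives the 250 bases before the RefSeq transcript start on the gene's strand in GRCm38.p6, with capitals on matches to the core NRF1 palindrome or to GGGCGG (SP1), on either strand and with overlapping matches joined.
Sdha, chr13:74350241-74350490, minus strand: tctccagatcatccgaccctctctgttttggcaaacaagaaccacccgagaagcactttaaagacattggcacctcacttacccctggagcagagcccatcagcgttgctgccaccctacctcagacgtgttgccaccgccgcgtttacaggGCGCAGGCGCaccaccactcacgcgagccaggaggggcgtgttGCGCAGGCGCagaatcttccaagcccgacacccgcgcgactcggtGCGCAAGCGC
Atp5j2, chr5:145191542-145191791, minus strand: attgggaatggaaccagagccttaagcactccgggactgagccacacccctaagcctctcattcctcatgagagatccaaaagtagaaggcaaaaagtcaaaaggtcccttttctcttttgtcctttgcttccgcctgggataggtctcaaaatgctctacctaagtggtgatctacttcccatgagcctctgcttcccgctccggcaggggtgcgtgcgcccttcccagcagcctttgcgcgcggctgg
Ndufb2, chr6:39592315-39592564, plus strand: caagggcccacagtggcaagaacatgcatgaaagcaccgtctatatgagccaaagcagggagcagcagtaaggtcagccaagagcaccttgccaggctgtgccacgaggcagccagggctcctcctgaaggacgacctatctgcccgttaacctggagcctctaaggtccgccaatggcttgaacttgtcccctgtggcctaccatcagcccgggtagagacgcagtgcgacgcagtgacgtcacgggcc
Ndufaf4, chr4:24897833-24898082, plus strand: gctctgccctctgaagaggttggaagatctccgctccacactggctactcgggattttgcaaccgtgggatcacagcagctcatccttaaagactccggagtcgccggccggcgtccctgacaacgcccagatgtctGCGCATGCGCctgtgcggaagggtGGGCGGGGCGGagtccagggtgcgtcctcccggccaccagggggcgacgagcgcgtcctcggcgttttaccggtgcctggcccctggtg
Ndufv3, chr17:31519865-31520114, plus strand: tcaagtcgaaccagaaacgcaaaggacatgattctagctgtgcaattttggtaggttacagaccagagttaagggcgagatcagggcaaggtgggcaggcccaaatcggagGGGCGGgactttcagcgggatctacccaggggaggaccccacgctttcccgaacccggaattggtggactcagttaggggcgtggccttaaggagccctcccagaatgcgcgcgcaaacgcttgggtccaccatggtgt
Sdha held 3 NRF1 matches, beginning 98, 55 and 10 bases before the start (positions -98, -55 and -10). Ndufaf4 held 1 NRF1 match at -113 and SP1 matches at -89 and -84, which overlap each other. Ndufv3 held an SP1 match at -139, and no match to these letters lay in the printed windows of Ndufb2 and Atp5j2. The Atp5j2 window lies wholly inside the gene span given further on, which begins farther upstream. For Atp5j2 the lack of a match therefore concerns the RefSeq start only. The Sdha window also begins inside that gene's span, which holds the match at -10. Ccdc127 starts 29 bases beyond the span on the other strand, and the match at -98 lies inside it. The Sdha matches are therefore not read as particular to Sdha. Over the 75 member genes found by symbol in the promoter table, the NRF1 letters were in 25.3%, against 5.19% of all 27025 genes. The window searched had 300 bases (250 before and 50 after the start). A gene counted once if any of its promoters held a match. The ETS letters CCGGAAG were in 25.3% of member genes and in 9.93% of all genes. The YY1 site was in 6.67% of member genes and in 0.755% of all genes. TCAAGGTCA, the site of the oestrogen-related receptors, was in 2.67% of member genes and in 0.466% of all genes, and GGGCGG in 45.3% of member genes and in 38.2% of all genes. Both strands were searched, and a match is a run of letters, not a shown binding site.

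Yolk sac libraries held 16400137 to 22113787 counts, and embryo libraries 23414255 to 27674831. Visceral endoderm markers (15 genes) summed to 31550 to 50780 CPM (the edgeR unit of counts scaled to library size) in yolk sacs, with none at 0, and to 265.1 to 1264 CPM in embryos, so the tissue labels and the markers matched. The highest embryo value was that of CD WT replicate 2, against 401.4 CPM in CD WT replicate 1. Setd2 itself fell in null HO embryos (log2 change -1.23, SE 0.07, edgeR adjusted p = 4.67e-07), and in CD HO embryos, whose allele leaves a transcript, the change was -0.15 (SE 0.07, adjusted p = 0.161). In null HO yolk sacs Setd2 fell by less, to 75.57 and 78.94 CPM (-0.49 against those labelled WT, SE 0.09, edgeR adjusted p = 0.0113). Null yolk sacs labelled WT held 102.5 and 114.0 CPM of Setd2, no higher than null HE yolk sacs at 114.1 and 119.7 CPM, while CD WT yolk sacs held 178.2 and 190.4 CPM. The group is therefore called the null yolk sacs labelled WT, and the members' null HO yolk sac calls are also given against HE yolk sacs. For the CD minus null difference in yolk sacs no such fit was made.

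In null HO embryos the nuclear genes of oxidative phosphorylation were lower more often than higher, by small amounts, with 2 of them lowered strongly. Of 98 members, 92 passed the filter on low counts, and 2 were higher and 21 lower in null HO than in null WT embryos at an edgeR adjusted p under 0.05. Among all 19215 genes tested 32.7% were called, 16.2% higher and 16.5% lower, so the share of members called lower was above that background and the share called higher below it, a comparison for which no test was made. The median log2 change was -0.12 over the members and 0.01 over all genes. It was -0.30 in complex II, where 4 of 4 genes were lower, -0.09 in complex I (1 higher and 12 lower of 45 tested) and -0.14 in complex III (1 lower of 8). Complex IV, with 1 higher and 2 lower of 18, had a median of -0.01, and complex V, with 2 lower of 17, had -0.09. Whole embryos were measured, so that fewer cells of a type and less RNA per cell cannot be told apart.

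**Figure D1:**
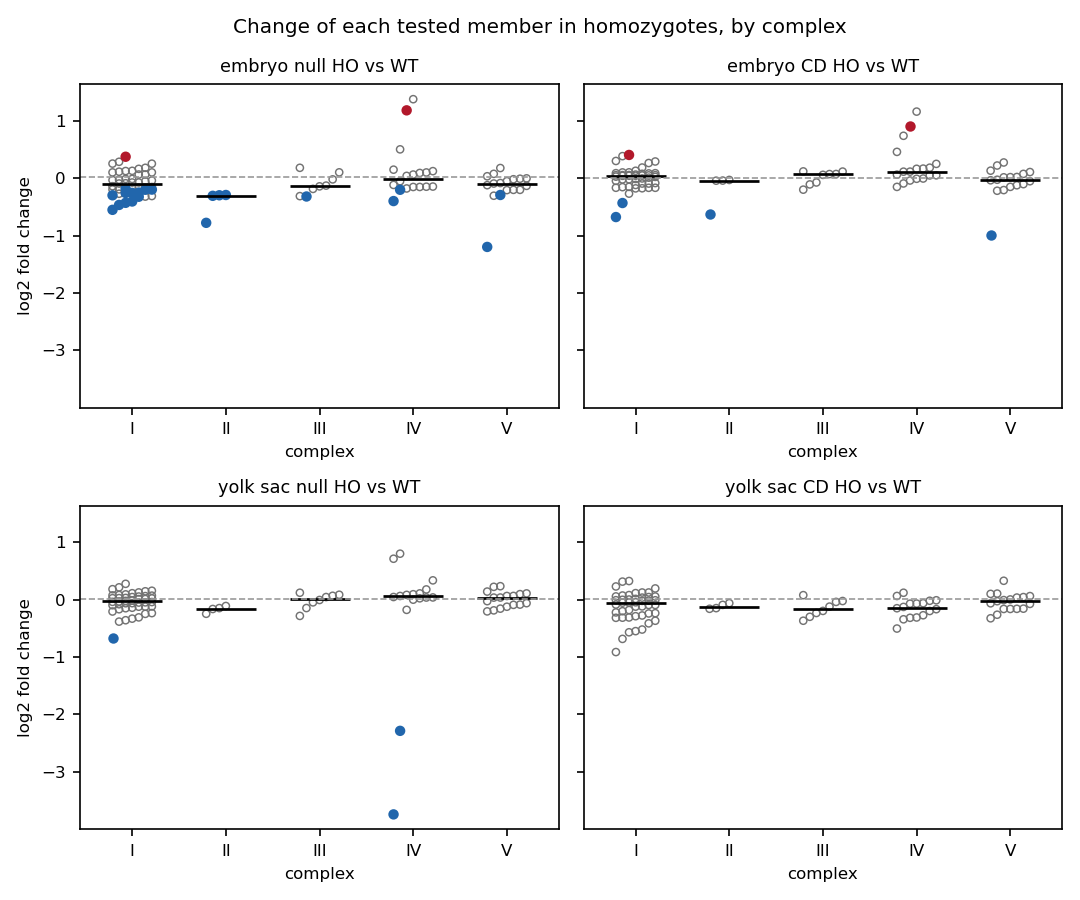
log2 fold change of each tested member (points) in homozygotes over wild types, by complex, for both tissues and lines. Filled points are called at an edgeR adjusted p under 0.05 (red higher, blue lower), open points are not, black bars are medians of a complex and the dashed line is the median of all genes tested; in null embryos 21 filled points lie below the line and 2 above it.

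Library values moved with this result. Without null HO embryo replicate 2, 14 members were called (2 higher and 12 lower), and the members' median was -0.06. Without null HO replicate 1, 33 were called (4 higher and 29 lower) and the median was -0.16. Leaving out null WT replicate 1 left 12 calls, and leaving out null WT replicate 2 left 5. Null HO replicate 1 carried Y-linked transcripts, and null HO replicate 2 and both null WT embryos did not. Primitive erythroid markers (12 genes, none at 0) summed to 1672 and 353.9 CPM in null HO replicates 1 and 2, against 2527 and 3614 CPM in null WT. Neural markers (10 genes, none at 0) summed to 260.1 and 204.5 CPM in null HO and to 489.8 and 437.4 CPM in null WT. Visceral endoderm markers (15 genes, none at 0) were higher in null HO, at 601.4 and 567.4 CPM against 300.3 and 305.6 CPM in null WT, as were trophoblast and decidua markers (7 genes, 1 at 0 in either group) at 61.96 and 103.9 CPM against 39.75 and 48.77 CPM. The part of these cell populations in the members' changes was not tested. Across these alternatives and 7 others, the calls of Atp5j2, Sdha, Ndufa12 and Cox4i2 were kept under all 11, and each of the other 19 was lost under at least 1 of them.

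In CD HO embryos fewer members passed. Of 92 tested, 2 were higher and 4 lower than in CD WT embryos, that is 6 of 92 against 16.1% of all genes (6.92% higher and 9.14% lower), and the members' median change was 0.03 against 0.00 over all genes. Complex I had 1 higher and 2 lower, complex II 1 lower, complex IV 1 higher, complex V 1 lower and complex III none. Against HE instead of WT embryos, 18 were called, 4 higher and 14 lower, and the median was -0.06. The share of all genes called against HE embryos is not given here, so the 18 have no background beside them. Without CD HO replicate 2, 3 were called. Without CD WT replicate 2 the members' median was -0.04, below 0. Visceral endoderm markers stood at 489.7 and 514.1 CPM in CD HO embryos and at 401.4 and 1264 CPM in CD WT embryos, and neural markers at 328.8 and 295.2 CPM in CD HO and 425.8 and 403.2 CPM in CD WT embryos. Their part was not tested. Both CD WT embryos carried Y-linked transcripts and neither CD HO embryo did, so sex and genotype coincide there. A fit with sex as a term, which takes its sex effect from the other embryo groups, called 5 members, of which 4 were among the 6.

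The difference between the lines was tested directly. By edgeR, no member differed between the CD and the null homozygous effect in embryos, where 0.0208% of all genes were called. DESeq2 called no member either, and 17 members had an unadjusted p under 0.05. The 17 are given without the share of all genes, so they are not read as a difference of the members. The smallest p belonged to Uqcr11 (0.42, SE 0.13, adjusted p = 0.223), Cox4i2 (-0.72, SE 0.22, adjusted p = 0.238) and Uqcrb (-0.38, SE 0.13, adjusted p = 0.270). Without null HO replicate 1, 13 members were called, 12 of them with the higher value in the CD effect. A call in null and not in CD embryos, as for 18 members, therefore does not show that the lines differ.

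**Figure D2:**
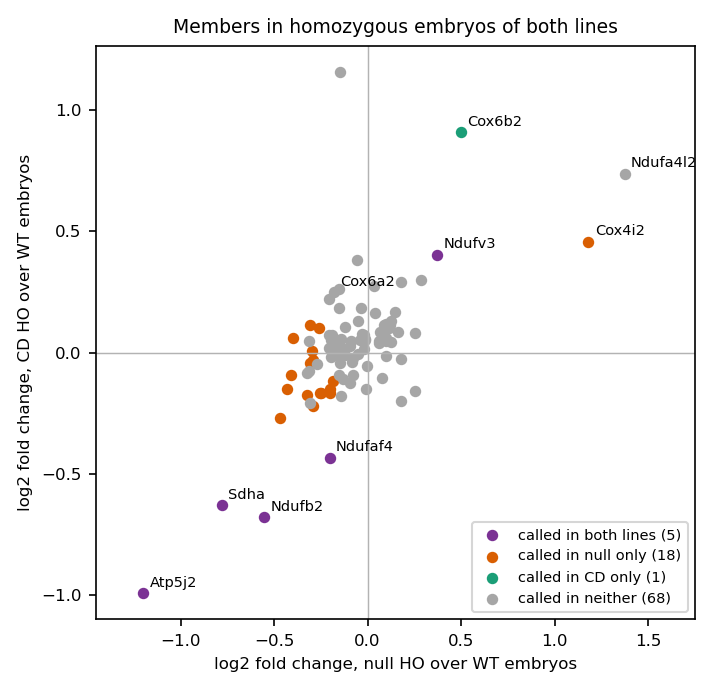
log2 fold change of the 92 tested members in CD HO over WT embryos (vertical axis) against that in null HO over WT embryos (horizontal axis), coloured by the line in which each was called. 5 members were called in both lines, 18 in null embryos and 1 in CD embryos alone, and 68 in neither, with Atp5j2 and Sdha farthest to the lower left.

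Atp5j2, at chr5:145183698-145192062 on the minus strand, codes for the f subunit of the membrane part of ATP synthase. It stood at 38.1 and 37.9 CPM in null HO embryos, against 86.3 and 88.2 CPM in null WT embryos. In CD embryos it stood at 38.8 and 41.5 CPM in HO and at 81.6 and 78.1 CPM in WT. The homozygotes lay well below every wild-type library in both lines. The log2 change was -1.20 in the null line (SE 0.06, edgeR adjusted p = 1.07e-07) and -0.99 in the CD line (SE 0.06, adjusted p = 6.61e-07). Heterozygotes held 84.2 and 87.9 CPM in the null line and 85.5 and 85.4 CPM in the CD line, within or close to the wild-type values.

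Sdha, at chr13:74322254-74350280 on the minus strand, codes for the flavoprotein that oxidises succinate in complex II. It stood at 153.6 and 146.4 CPM in null HO embryos, against 255.7 and 259.0 CPM in null WT embryos. In CD embryos the HO libraries held 160.6 and 158.5 CPM and the WT libraries 260.0 and 233.2 CPM. Here too the genotypes did not overlap. The log2 change was -0.78 in the null line (SE 0.06, adjusted p = 3.91e-06) and -0.63 in the CD line (SE 0.06, adjusted p = 4.18e-05), and HE embryos held 251.7 and 257.5 CPM in the null line and 255.7 and 241.0 CPM in the CD line.

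The other complex II genes were lower in null HO embryos by less. Sdhb, the iron-sulphur subunit, had 66.2 and 56.8 CPM in null HO and 75.5 and 75.9 CPM in null WT embryos (-0.30, SE 0.07, adjusted p = 0.00849). Sdhc, a membrane anchor, had 64.7 and 55.9 CPM in null HO and 73.1 and 74.9 CPM in null WT embryos (-0.29, SE 0.07, adjusted p = 0.0100). Sdhd, the other anchor, had 90.3 and 76.5 CPM in null HO and 101.5 and 105.1 CPM in null WT embryos (-0.31, SE 0.07, adjusted p = 0.00702). In each of these 3 genes replicate 2 was the lower null HO library, and all 3 calls were lost without null WT replicate 2. In CD embryos their log2 changes were -0.04 (Sdhb), -0.03 (Sdhc) and -0.04 (Sdhd), with adjusted p of 0.746, 0.815 and 0.732. As a sum, complex II stood at 374.9 and 335.7 CPM in null HO and 505.8 and 515.0 CPM in null WT embryos, and at 385.1 and 386.4 CPM in CD HO and 503.2 and 455.0 CPM in CD WT embryos, with Sdha as its largest part.

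3 members of complex I complete the set called alike in both lines. Ndufaf4, an assembly factor, had 50.4 and 49.1 CPM in null HO and 54.6 and 59.8 CPM in null WT embryos, and 43.5 and 47.7 CPM in CD HO and 62.0 and 61.2 CPM in CD WT embryos. It fell by 0.20 on the log2 scale in the null line (SE 0.07, adjusted p = 0.0390) and by 0.43 in the CD line (SE 0.07, adjusted p = 0.00163). The CD call was kept under all 11 alternatives, and the null call was lost under 5 of 11. Ndufb2, an accessory subunit, had 5.32 and 7.0 CPM in null HO and 8.85 and 9.20 CPM in null WT embryos, and 5.78 and 5.62 CPM in CD HO and 8.47 and 9.79 CPM in CD WT embryos. It fell by 0.55 in the null line (SE 0.15, adjusted p = 0.0152) and by 0.68 in the CD line (SE 0.15, adjusted p = 0.0115). The gene overlaps Gm42420 on its own strand and Braf on the other, and the counting's use of strand is not stated in any source read here, which leaves its level uncertain.

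Ndufv3, a small accessory subunit of the NADH-oxidising arm, rose. It had 54.9 and 52.0 CPM in null HO and 38.5 and 44.1 CPM in null WT embryos, and 62.2 and 55.9 CPM in CD HO and 39.2 and 50.1 CPM in CD WT embryos. The log2 change was 0.37 in the null line (SE 0.11, adjusted p = 0.0250) and 0.40 in the CD line (SE 0.11, adjusted p = 0.0307). Neither line's genotypes overlapped, though the WT libraries differed among themselves by more than the HO libraries did in the CD line, and the call was lost under 3 of 11 alternatives in the null and 4 of 11 in the CD line.

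**Figure D3:**
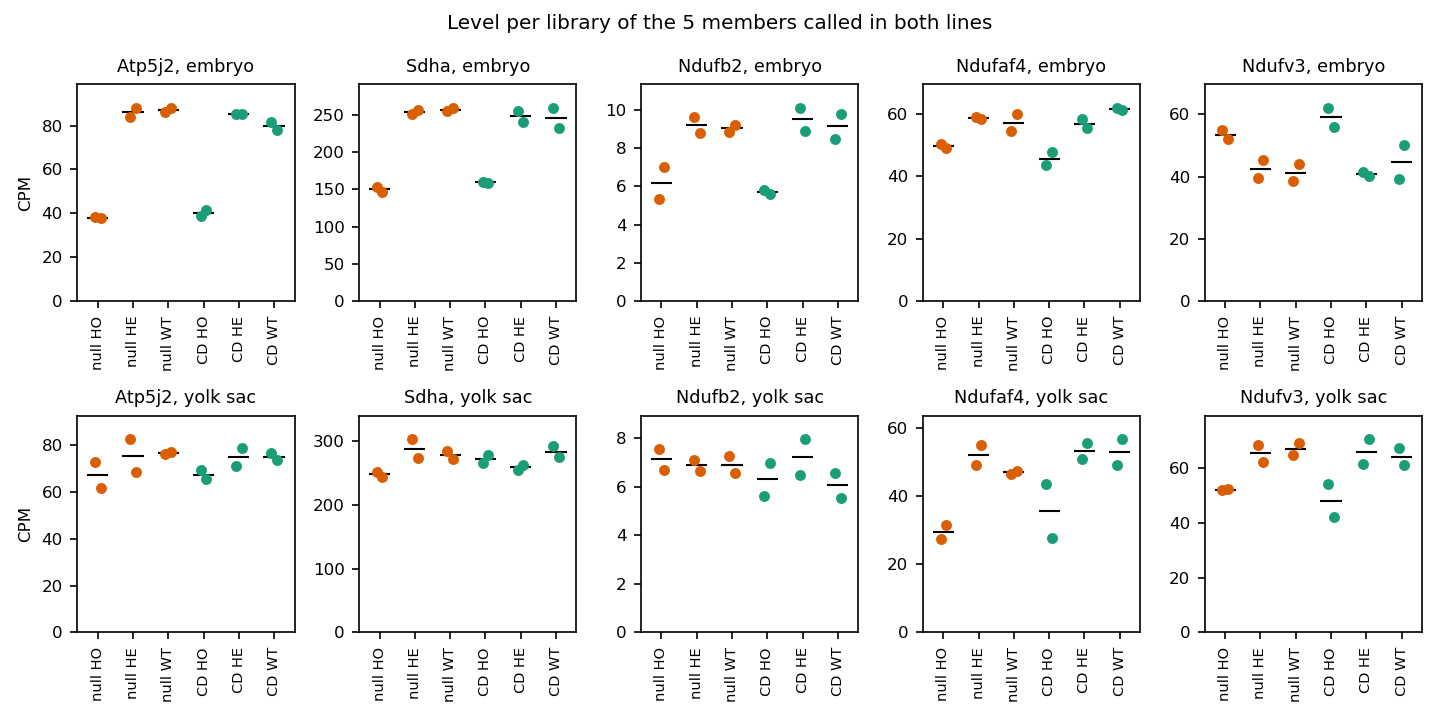
CPM per library (points) and group mean (bars) of the 5 members called in both lines of embryos, in embryos (top) and yolk sacs (bottom), for null (orange) and CD (green) HO, HE and WT libraries. In embryos HO libraries of Atp5j2 and Sdha sit at about 38 to 41 CPM and 146 to 161 CPM, apart from all HE and WT libraries; in yolk sacs those genes' HO libraries are close to the others.

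The genes beside the most lowered members were also measured. Ccdc127, which starts 29 bases from Sdha and runs the other way, changed by -0.61 in null HO embryos (SE 0.06, adjusted p = 3.56e-05) and by -0.57 in CD HO embryos (SE 0.06, adjusted p = 1.33e-04). Pdcd6, on the far side of Sdha, changed by 0.06 and -0.06 (adjusted p = 0.580 and 0.679). Beside Atp5j2, Cpsf4, a gene of mRNA cleavage and polyadenylation, changed by -0.59 in the null line (SE 0.08, adjusted p = 1.95e-04) and by -0.34 in the CD line (SE 0.08, adjusted p = 0.0125). Zkscan14 on its other side changed by -0.77 (adjusted p = 0.0237) and -0.66 (adjusted p = 0.0731). Around Ndufv3 and Ndufaf4 the nearest genes Wdr4, Pknox1, Klhl32 and Gpr63 passed in neither line. Beside Ndufb2, Adck2 did not pass either (0.24 in null and 0.41 in CD, adjusted p = 0.230 and 0.0668), while Braf, which overlaps it, was higher in null HO embryos (0.28, SE 0.08, adjusted p = 0.0153) and not called in CD HO embryos (-0.02, SE 0.08, adjusted p = 0.916).

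Among the core subunits of complex I, Ndufv1, which binds NADH, had 75.4 and 64.6 CPM in null HO and 84.6 and 87.7 CPM in null WT embryos (-0.30, SE 0.07, adjusted p = 0.00938). Ndufs1, the largest subunit, had 112.0 and 105.2 CPM in null HO and 120.9 and 126.0 CPM in null WT embryos (-0.18, SE 0.06, adjusted p = 0.0348). Of the 7 core subunits 4 were lower and none was higher in null HO embryos, and none passed in CD HO embryos. Of 29 accessory subunits 6 were lower and 1 higher in null HO embryos, and of the 8 assembly factors 2 were lower.

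Ndufa12, an accessory subunit, was lowered more than most, with 34.2 and 33.8 CPM in null HO and 44.9 and 45.3 CPM in null WT embryos (-0.41, SE 0.09, adjusted p = 0.00372). Ndufaf2, its paralogue and an assembly factor, had 15.1 and 15.6 CPM in null HO and 19.5 and 23 CPM in null WT embryos (-0.47, SE 0.10, adjusted p = 0.00510). In the CD line both had low WT libraries: Ndufa12 held 34.6 and 31.7 CPM in CD HO against 36.9 and 33.9 CPM in CD WT embryos, and 43.1 and 42.95 CPM in CD HE embryos. Uqcrfs1, the Rieske iron-sulphur protein of complex III, Cox4i1 of complex IV and Atp5b, the catalytic subunit of ATP synthase, did not pass in null HO embryos (log2 changes -0.14, 0.09 and -0.13, adjusted p = 0.255, 0.151 and 0.0769). In CD HO embryos theirs were 0.06, 0.11 and 0.02 (adjusted p = 0.721, 0.117 and 0.865).

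Several subunits of complex IV exist as a general form and a tissue-restricted or oxygen-responsive form. Levels per length in wild types were far higher for the general forms. Cox4i1 had a median of 108 FPKM in WT yolk sacs and 80.6 FPKM in WT embryos, and Cox4i2, the form known for expression in lung and for induction by low oxygen, 0.763 and 5.35 FPKM. Cox6a1 had 162 FPKM in yolk sacs and 94.0 FPKM in embryos, and Cox6a2, the form of heart and skeletal muscle, 0 and 1.82 FPKM. Cox7a2 had 81.8 and 70.1 FPKM, its relative Cox7a2l, a supercomplex factor, 63.3 and 48.4 FPKM, and the muscle form Cox7a1 4.43 and 2.08 FPKM, each with yolk sacs before embryos. Cox6b1 had 192 and 127 FPKM and the testis form Cox6b2 5.10 and 2.68 FPKM. Ndufa4 had 66.5 and 56.1 FPKM and Ndufa4l2, a form induced by low oxygen, 0.205 and 0.919 FPKM. Cox7b2, Cox8b and Cox8c had at most 8 counts in a library and were tested nowhere, nor were Ndufa11b, Ndufb4c and the second Atp5o entry, which was at 0 counts throughout.

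Cox4i2 rose in null HO embryos, to 6.90 and 6.58 CPM against 3.32 and 2.62 CPM in null WT embryos (1.18, SE 0.16, adjusted p = 2.09e-04). In CD HO embryos it held 7.66 and 6.82 CPM against 5.34 and 5.21 CPM in CD WT embryos (0.46, SE 0.15, adjusted p = 0.0602). The HO libraries lay above the WT libraries in both lines, and the CD WT libraries stood above the null WT and above both HE groups (3.56 and 3.22 CPM in null HE, 3.74 and 3.81 CPM in CD HE embryos). Ndufa4l2 had 2.51 and 2.68 CPM in null HO and 1.04 and 0.95 CPM in null WT embryos (1.38, SE 0.51, adjusted p = 0.0549). In CD embryos it had 4.71 and 3.73 CPM in HO and 0.923 and 4.17 CPM in WT embryos (0.74, SE 0.44, adjusted p = 0.288). The high WT library was the replicate 2 with raised visceral endoderm markers, whose part was not tested. Ndufa4l2 was lower in WT yolk sacs, where these markers are far higher, than in WT embryos (values further on). Cox6b2 had 3.94 and 5.32 CPM in CD HO and 2.17 and 2.75 CPM in CD WT embryos (0.91, SE 0.23, adjusted p = 0.0182), a call lost with the sex term, on dropping CD WT replicate 1 and on dropping CD HO replicate 2. In null embryos it had 5.86 and 4.86 CPM in HO and 3.25 and 4.33 CPM in WT (0.50, SE 0.21, adjusted p = 0.0904).

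The other paralogues varied less. Of the 3 genes for the identical c subunit of ATP synthase, Atp5g3 was the highest per length, at 118 FPKM in WT yolk sacs and 85.3 FPKM in WT embryos, followed by Atp5g2 at 39.9 and 54.1 FPKM and Atp5g1 at 12.9 and 10.9 FPKM. None passed in HO embryos of either line. In null HO embryos replicate 2 was low for Atp5g1 (55.7 and 39 CPM against 52.7 and 56.8 CPM in null WT), for Atp5g2 (97.9 and 69.0 CPM against 94.8 and 97.7 CPM in null WT) and for Cox8a (71.7 and 48.3 CPM against 76.2 and 82.3 CPM in null WT). Cox8a was called (-0.40, SE 0.13, adjusted p = 0.0387), and without that replicate its adjusted p was no longer under 0.05. Cox7b, which is X-linked, had 73.9 and 74.2 CPM in null HO and 83.2 and 87.3 CPM in null WT embryos (-0.20, SE 0.06, adjusted p = 0.0201), a call lost with the sex term and without null WT replicate 2.

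Yolk sacs gave few calls. In null HO yolk sacs none of the 90 tested members was higher and 3 were lower than in null yolk sacs labelled WT, where 6.27% of all 17755 genes were called (2.30% higher and 3.97% lower), and the members' median was 0.00 against 0.02 over all genes. Against null HE yolk sacs 2 members were lower, with no share of all genes given beside them, and the median was -0.01. In CD HO yolk sacs edgeR called none, against 3.15% of all genes (1.27% higher and 1.89% lower). There 15 of 90 members had an unadjusted p under 0.05 and DESeq2 called 2. Both counts are given without the share of all genes, so they are not read as a change of the members. The smallest p belonged to Ndufa12 (-0.68, SE 0.18, adjusted p = 0.0602), Atp5g3 (0.33, SE 0.10, adjusted p = 0.0890) and Atp5g2 (-0.33, SE 0.10, adjusted p = 0.0971). Without CD HO replicate 1, 12 members were lower, and this library had 31550 CPM of visceral endoderm markers, against 40120 CPM in CD HO replicate 2. No member differed between the CD and the null effect in yolk sacs, where 0.0282% of all genes were called, DESeq2 called no member, and 3 members had an unadjusted p under 0.05, Cox7a1 (1.78, SE 0.56), Cox4i2 (3.68, SE 1.18) and Ndufa12 (-0.69, SE 0.25), all at an adjusted p of 1.0. Visceral endoderm markers were at 36630 and 33590 CPM in null HO and at 47320 and 43990 CPM in null yolk sacs labelled WT. They were at 47020 and 43090 CPM in CD WT. Primitive erythroid markers were at 20960 and 13760 CPM in null HO and at 13370 and 15000 CPM in null yolk sacs labelled WT. In CD yolk sacs they were at 12620 and 17680 CPM in HO and differed widely between the WT libraries, at 9405 and 29220 CPM. The part of either marker list was not tested.

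The 3 lowered members in null HO yolk sacs were Cox7a1, Cox4i2 and Ndufaf4. Cox7a1 had 9 and 14 counts (0.42 and 0.76 CPM) in null HO and 54 and 59 counts (2.73 and 3.0 CPM) in null yolk sacs labelled WT, with HE at 43 and 47 counts (-2.29, SE 0.41, adjusted p = 0.00825; against HE -1.86, adjusted p = 0.0185). In CD yolk sacs it had 32 and 16 counts in HO and 41 and 30 counts in WT (-0.50, SE 0.38, adjusted p = 0.499). Cox4i2 had 1 and 2 counts in null HO and 26 and 17 counts in those labelled WT, a ratio of 0.0695 by library totals (95% exact interval 0.0138 to 0.217, which covers counting error only). Its fitted change had an adjusted p of 0.0246, and in HE yolk sacs it had 6 and 20 counts, against which the call was lost (adjusted p = 0.0642). In CD yolk sacs Cox4i2 had 9 and 3 counts in HO and 6 and 7 counts in WT (-0.06, SE 0.78, adjusted p = 0.978). Of the counts given here, only those of the libraries labelled WT and of HE replicate 2 exceeded the filter's minimum of 10. Cox4i2 was thus tested in yolk sacs mainly through the reference group where it is high, so its call there supports nothing further. Ndufaf4 had 27.4 and 31.6 CPM in null HO and 46.7 and 47.5 CPM in those labelled WT, with HE at 49.2 and 55.1 CPM (-0.68, SE 0.18, adjusted p = 0.0453; against HE -0.82, adjusted p = 0.0174). In CD yolk sacs it had 43.6 and 27.8 CPM in HO and 49.3 and 56.8 CPM in WT (-0.57, SE 0.18, adjusted p = 0.101), so it was the one member called lower in both tissues of a line. All 3 calls were lost on leaving out some single library.

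Heterozygotes gave no call in either tissue or line by edgeR. In embryos 0.0104% of all genes were called in the null line (0.00520% higher and 0.00520% lower) and 0.0156% in the CD line (0.0104% higher and 0.00520% lower), and in yolk sacs 0% in both. Members with an unadjusted p under 0.05 numbered 0 in null HE embryos, 5 in CD HE embryos, 0 in null HE yolk sacs and 1 in CD HE yolk sacs. These counts, too, stand without the share of all genes. DESeq2 called 0 members in each of these comparisons. Both null HE embryos carried Y-linked transcripts and neither null WT embryo did, so sex and genotype coincide there, and CD HE yolk sac replicate 2 held both Y-linked transcripts and Xist. With the sex term edgeR also called 0 members in each. The smallest p values were those of Ndufa8 in null HE embryos (0.17, SE 0.08, adjusted p = 1.0), Ndufv1 in CD HE embryos (0.25, SE 0.07, adjusted p = 0.413), Ndufb11 in null HE yolk sacs (-0.22, SE 0.11, adjusted p = 1.0) and Uqcrc1 in CD HE yolk sacs (-0.20, SE 0.09, adjusted p = 0.995).

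Whether the homozygous effect differed between tissues was tested in 1 fit over all 24 libraries. In the null line 5 members differed, against 10.1% of all 20543 genes (4.28% with the higher value in yolk sac and 5.83% with the lower). Atp5j2 (0.98, SE 0.13, adjusted p = 1.81e-04) and Sdha (0.58, SE 0.10, adjusted p = 0.00179) were less lowered in yolk sac. Setd2 itself was also less lowered there in the null line (0.71, SE 0.11, edgeR adjusted p = 6.56e-04), and its part was not tested. Cox4i2, Cox7a1 and Ndufv3 had the lower value in yolk sac. The Cox4i2 difference rests on the same few yolk sac counts as its call there, so it too supports nothing further. In the CD line 3 differed, against 2.94% of all genes (1.79% and 1.15%): Atp5j2 (0.83, SE 0.13, adjusted p = 0.00223), Sdha (0.56, SE 0.10, adjusted p = 0.00733) and Ndufv3 (-0.83, SE 0.18, adjusted p = 0.0197). In the yolk sacs themselves Atp5j2 held 73.0 and 61.8 CPM in null HO and 76.4 and 77.1 CPM in those labelled WT, and Sdha 252.0 and 244.4 CPM in null HO and 284.2 and 271.6 CPM in those labelled WT. Ndufv3, which rose in embryos, had 51.9 and 52.1 CPM in null HO and 64.4 and 68.9 CPM in null yolk sacs labelled WT (-0.36, SE 0.13, adjusted p = 0.125). The sexes of CD WT and CD HO libraries are reversed between the tissues, and with sex as a term none of the 3 CD differences passed.

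The comparison with the most calls was that between the tissues themselves. In WT yolk sacs 76 of 92 tested members were higher and 4 lower than in WT embryos, against 34.2% higher and 37.4% lower, 71.7% in all, of 20543 genes. The members' median log2 change was 0.64 and that of all genes -0.08. Scaling by library totals alone moved the all-gene median by -0.32 (log2), to -0.39, and then 58 members were higher and 14 lower, with the members' median at 0.32. Relative to the all-gene median, the members lay 0.72 higher under either scaling. A change of scaling moves all genes by about the same amount, so this equality was bound to hold and is no check. In 73 members all 4 WT yolk sac libraries lay above all 4 WT embryo libraries. This count was not made over all genes, so it shows nothing particular to the members. As a share of all counts, the members took 0.813 to 0.838% in WT yolk sacs and 0.619 to 0.708% in WT embryos. With the WT libraries of the CD line alone 74 members were higher and 3 lower. With those of the null line alone, whose yolk sacs are the ones labelled WT, 66 were higher and 3 lower. The shares of all genes called in these fits by line are not given here.

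**Figure D4:**
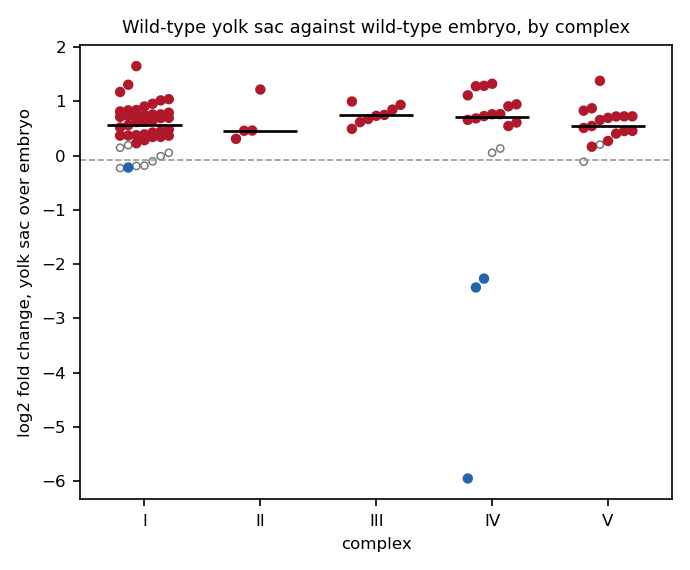
log2 fold change of each tested member (points) in WT yolk sac over WT embryo, by complex. Filled points are called at an edgeR adjusted p under 0.05 (red higher, blue lower), open points are not, black bars are medians of a complex and the dashed line is the median of all genes tested, -0.08; medians lie between 0.46 in complex II and 0.74 in complex III, and 3 points of complex IV lie below -2.

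All complexes shared this difference. Complex I had 36 higher and 1 lower of 45, complex II 4 higher of 4, complex III 8 higher of 8, complex IV 13 higher and 3 lower of 18, and complex V 15 higher of 17. The complexes' medians were 0.56, 0.46, 0.74, 0.71 and 0.55 in that order. With library totals alone, Atp5j2 had the lower value in yolk sac, and Ndufs4, Ndufaf3, Sdhb and Atp5mpl turned slightly below 0. Cardiac muscle markers (12 genes, 1 to 3 at 0) summed to 12.4 to 20.1 CPM in yolk sacs and (none at 0) to 1523 to 2471 CPM in embryos. The part of cell type in this contrast was not tested.

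Sdhd had the smallest p. It held 220.5, 201.8, 215.9 and 196.5 CPM in WT yolk sacs and 91.9, 95.7, 89.3 and 81.7 CPM in WT embryos (1.22, SE 0.07, adjusted p = 3.58e-12), on the scale common to both tissues. Ndufb10, a membrane-arm subunit of complex I, held 103.0, 87.8, 97.0 and 88.3 CPM in WT yolk sacs and 36.8, 38.5, 39.8 and 36.7 CPM in WT embryos (1.31, SE 0.07, adjusted p = 6.69e-12). For both genes every yolk sac library was above every embryo library. Uqcrc1, a core subunit of complex III (0.85, SE 0.05, adjusted p = 1.52e-11), Atp5c1, the central stalk of ATP synthase (0.87, SE 0.06, adjusted p = 6.92e-11), and Cox4i1 (0.73, SE 0.05, adjusted p = 1.43e-10) followed.

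The catalytic and core subunits were higher too. Ndufs1 differed by 0.74 (SE 0.05), Ndufv1 by 0.45 (SE 0.07), Sdha by 0.46 (SE 0.05), Uqcrfs1 by 0.49 (SE 0.07) and Atp5b by 0.45 (SE 0.05), all at an adjusted p of at most 6.93e-06. Among the c subunit genes Atp5g3 (0.83, SE 0.06, adjusted p = 6.64e-10) and Atp5g1 (0.55, SE 0.08, adjusted p = 8.34e-06) were higher in yolk sac, and Atp5g2 did not pass (-0.11, SE 0.08, adjusted p = 0.211).

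The 4 members lower in yolk sac were Cox6a2, Cox4i2, Ndufa4l2 and Ndufa7. Cox6a2 had 2 counts over the 4 WT yolk sac libraries and 127 over the 4 WT embryo libraries, a ratio of 0.0197 by library totals (95% exact interval 0.00236 to 0.0726, counting error only). Cox4i2 held 1.49, 0.967, 0.334 and 0.370 CPM in WT yolk sacs and 3.01, 2.39, 4.81 and 4.67 CPM in WT embryos (-2.43, SE 0.26, adjusted p = 7.96e-08). Ndufa4l2 held 0.287, 0.171, 0.223 and 0.528 CPM in WT yolk sacs and 0.944, 0.865, 0.831 and 3.74 CPM in WT embryos (-2.27, SE 0.49, adjusted p = 4.29e-04). In each of these 3 the tissues did not overlap. Cox6a2 and Ndufa4l2 did not pass the count filter within yolk sacs and entered the joint fit through embryos, where they are higher, so their calls support nothing about restricted forms. Ndufa7, an accessory subunit of complex I, was near the threshold (-0.22, SE 0.09, adjusted p = 0.0464), and the call was lost under 10 of 16 alternatives. Cox6b2 (1.28, SE 0.28, adjusted p = 4.05e-04) and Cox7a1 (1.33, SE 0.23, adjusted p = 3.31e-05) went the other way.

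Genes that work with these complexes were counted in lists, to be read against all genes tested, of which 16.2% were higher and 16.5% lower in null HO embryos and 6.92% higher and 9.14% lower in CD HO embryos. The 13 mitochondrially encoded subunits had 11 lower and none higher in null HO embryos (median -0.37), 10 lower in CD HO embryos (median -0.46), and none called in HO yolk sacs of either line. mt-Nd4 had the smallest p in null HO embryos (-0.37, SE 0.05, adjusted p = 3.12e-04) and mt-Cytb in CD HO embryos (-0.60, SE 0.06, adjusted p = 4.65e-05). Their median in WT yolk sac over WT embryo was 1.33, with 11 higher. Cytochrome c1 (Cyc1, -0.40, SE 0.09, adjusted p = 0.00678) and cytochrome c (Cycs, -0.17, SE 0.05, adjusted p = 0.0163) were lower in null HO embryos, and Cycs in CD HO embryos (-0.23, SE 0.05, adjusted p = 0.00776).

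Of 42 assembly factors outside the family names, 7 were lower and none higher in null HO embryos, among them Taco1, an activator of Co1 translation (-0.46, SE 0.11, adjusted p = 0.00618), and 2 were higher and 2 lower in CD HO embryos. The 16.7% lower in null HO is the background share. Of 77 mitochondrial ribosome genes tested, 5 were higher and 17 lower in null HO embryos and 3 higher and 6 lower in CD HO embryos, Mrpl20 being lower in both (-0.83, SE 0.08, adjusted p = 3.38e-05 in null and -0.41, SE 0.08, adjusted p = 0.00668 in CD). That is 6.49% higher and 22.1% lower in null HO, and 3.9% higher and 7.79% lower in CD HO, both below the background in CD. Mrpl10 was the one member of any of these lists called in HO yolk sacs, lower in the null line (-0.45, SE 0.12, adjusted p = 0.0499) and in the CD line (-0.71, SE 0.12, adjusted p = 0.0125). Its null call lies at the threshold and is given only against the yolk sacs labelled WT. Both CD HO yolk sacs carried Y-linked transcripts and neither CD WT yolk sac did, so sex and genotype coincide there. Of 19 regulators of mitochondrial biogenesis and mitochondrial DNA, 6 were higher and 1 lower in null HO embryos, with Polg, the mitochondrial DNA polymerase, at 0.64 (SE 0.13, adjusted p = 0.00270). In CD HO embryos 2 were higher and 2 lower, and Gabpa, which codes for the DNA-binding subunit of GABP, was lower in both lines (null -0.18, SE 0.06, adjusted p = 0.0327, and CD -0.27, SE 0.06, adjusted p = 0.00778).

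Of 18 citric acid cycle genes, 2 were higher and 5 lower in null HO embryos and 3 higher and 2 lower in CD HO embryos, that is 11.1% higher and 27.8% lower in null and 16.7% higher and 11.1% lower in CD, on few genes. Suclg2, a subunit of succinyl-CoA ligase, was higher in both (null 0.39, SE 0.06, adjusted p = 6.08e-04, and CD 0.29, SE 0.06, adjusted p = 0.00773). Of 7 carriers of ATP, ADP and phosphate, 4 were higher and 2 lower in null HO embryos and 3 higher in CD HO embryos, with the phosphate carrier Slc25a3 at 0.26 (SE 0.05, adjusted p = 0.00156) in null and 0.27 (SE 0.05, adjusted p = 0.00311) in CD. Of 10 hypoxia-induced switches of mitochondrial use, 5 were higher and none lower in null HO embryos and 2 higher in CD HO embryos, against 16.2% and 6.92% of all genes higher. Hk2, a hexokinase that docks on mitochondria, was higher in both (null 0.72, SE 0.13, adjusted p = 0.00148, and CD 0.45, SE 0.13, adjusted p = 0.0345).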

How the data were processed

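RNA-seq of 12 embryo and 12 yolk sac libraries was used. Reads were processed with fastp 0.22.0, HISAT2 2.2.1, featureCounts 2.0.1 and DESeq2 1.32.0 on mm10, per the submitters' processing notes, which give no roles; the annotation release and any strand setting are not stated in the sources read. The authors deposited raw counts per gene and FPKM values, which were recomputed from count, length and library total with 0 values off at a relative tolerance of 0.001. Gene length in bases was used as deposited. Counts were tested with edgeR 4.0.16 (R 4.3.3, limma 3.58.1; quasi-likelihood F-test, TMM, minimum count 10, minimum total 15, Benjamini-Hochberg over all genes tested, threshold 0.05), in 1 fit of 6 groups per tissue and 1 fit of all 24 libraries for comparisons between tissues. SE is the log2 change divided by the square root of F. The common BCV (biological variation) came to 0.165 for yolk sacs against 0.087 for embryos, which gives yolk sacs less precision; intervals cover counting error only.

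Per-library CPM are TMM-adjusted within a tissue unless said to be common to both. The code was tested on simulated data. Gene positions are those of GENCODE M21 (GRCm38). Genes were named by rule: the 5 called members with the lowest p in each direction, members called in both lines or tissues, paralogue sets, 1 or 2 core subunits per complex, and up to 3 members where none passed. Neighbouring genes were added after values were seen. The members and lists were chosen with earlier results of these data known. Alternatives were other scalings, no filter, a replicate block, a sex term, DESeq2 1.42.0, HE libraries as control and leaving out each library. Members called under an alternative are counted without the share of all genes called in the same fit. Such counts show how far the member count moved, not whether all genes moved with it. Columns of per-sample values left unused numbered 0.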

Additional observations from a re-analysis of the deposited data

Results flagged for a closer look

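These 8 results are listed because the homozygous effect in yolk sac differed from that in embryo in the fit over all 24 libraries (edgeR adjusted p). In the null line the difference of log2 changes, yolk sac minus embryo, was -4.99 for Cox4i2 (SE 0.65, adjusted p = 1.63e-04), whose yolk sac libraries of HO held 1 and 2 counts. It was 0.98 for Atp5j2 (SE 0.13, adjusted p = 1.81e-04) and 0.58 for Sdha (SE 0.10, adjusted p = 0.00179). It was -2.45 for Cox7a1 (SE 0.48, adjusted p = 0.00372) and -0.77 for Ndufv3 (SE 0.18, adjusted p = 0.0103). In the CD line it was 0.83 for Atp5j2 (SE 0.13, adjusted p = 0.00223), 0.56 for Sdha (SE 0.10, adjusted p = 0.00733) and -0.83 for Ndufv3 (SE 0.18, adjusted p = 0.0197). The null values rest on yolk sacs labelled WT whose Setd2 was no higher than in HE, and against HE libraries in both tissues 6 members differed. Cox4i2 was tested in yolk sacs mainly through those labelled WT, so its difference supports nothing further. Setd2 itself differed by 0.71 in the null line (SE 0.11, edgeR adjusted p = 6.56e-04).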

How the results depend on the processing

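Of the calls in null HO embryos, 4 of 23 were kept under all 11 alternatives, as were 3 of 6 in CD HO embryos, 0 of 3 in null HO yolk sacs and, under 16 alternatives, 60 of 80 between WT tissues. Leaving out 1 library gave 5 to 33 calls in null HO embryos, 3 to 7 in CD HO embryos, 0 to 2 in CD HE embryos, 0 to 13 for the CD minus null difference in embryos, 0 to 1 in null HO yolk sacs, 0 to 12 in CD HO yolk sacs and 2 to 11 for the CD difference between tissues (without yolk sac CD HO replicate 1: 11). With no filter, CD HE embryos gave 2 calls, the CD minus null difference in embryos 2, CD HO yolk sacs 3 and the CD difference between tissues 5. The sex term left 1 call in null HO yolk sacs and 0 for the CD difference between tissues. DESeq2 called 2 in CD HO yolk sacs, and HE libraries as control gave 18 in CD HO embryos. With library totals alone 5 yolk sac minus embryo changes turned below 0: Ndufs4 -0.087, Ndufaf3 -0.031, Sdhb -0.0063, Atp5j2 -0.151 and Atp5mpl -0.045. The causes were not tested. Within a tissue, same-numbered libraries did not clearly deviate together (correlations -0.114 to 0.0778 in embryos and -0.122 to 0.175 in yolk sacs), so the numbers show no pairing there. Whether an embryo and a yolk sac came from the same conceptus was not checked, and the fit over 24 libraries takes them as independent. With a replicate block the calls were 21 in null HO embryos, 6 in CD HO embryos, 2 in null HO yolk sacs and 80 between tissues. Depth limits the low members Cox4i2, Cox7a1 and Cox6a2 in yolk sacs.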
